A study of Mus musculus with 24 samples.

Results

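The nuclear-encoded respiratory chain genes encode, or help assemble, the 5 protein complexes of oxidative phosphorylation in the inner mitochondrial membrane. They were taken as the protein-coding genes present in both deposited tables whose GENCODE vM21 symbol starts with Ndufa, Ndufb, Ndufc, Ndufs, Ndufv, Sdha, Sdhb, Sdhc, Sdhd, Uqcr, Cox4, Cox5, Cox6, Cox7, Cox8 or Atp5, or is Cyc1. This gave 93 of the 30428 genes shared by the tables, of which 18440 are protein-coding. By symbol, 79 of the 93 members are counted as structural subunits, with 36 in complex I, 4 in complex II, 9 in complex III, 13 in complex IV and 17 in complex V. That count takes in Cox7a2l, a supercomplex factor, and Atp5s, a coupling factor. Another 12 members are assembly factors, 8 for complex I (Ndufaf) and 4 for complex II (Sdhaf). The last 2 are Ndufa4 and its paralogue Ndufa4l2, which carry a complex I name but belong with complex IV.

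Complexes I and II pass electrons from NADH and succinate to ubiquinone, complex III hands them to cytochrome c, and complex IV gives them to oxygen. Complexes I, III and IV pump protons as they do so, and complex V, the ATP synthase, uses the proton gradient to make ATP. Most subunits are encoded in the nucleus and imported, while a small set in complexes I, III, IV and V comes from mitochondrial DNA, so that each of those complexes is built from both genomes. Tumours of the lung, like other tumours, use the chain for ATP and for regenerating electron acceptors.

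RNA was sequenced from 24 libraries in 8 groups of 3, made from 2 mouse lung cancer models grown as tumours from injected cells in mice of the matching strain. LLC1 is the Lewis lung carcinoma line, and KP comes from a mouse lung tumour model that carries floxed p53 alleles. LLC1 had 3 groups, Parental LLC1, Chronic IFNG LLC1 and Relapsed LLC1, and KP had 5, Parental KP, Chronic IFNG KP, 1st relapse KP, 2nd relapse KP and Late relapse KP. Chronic IFNG tumours came from cells with a history of low-level chronic exposure to interferon gamma, and relapsed tumours from ICB-relapsed cells, in a series on acquired resistance to immunotherapy. All groups shared the label "None" for treatment, the harvest on day 15, and a sort for live CD45-negative cells. The labels give no IFNG dose, no definition of the relapse stages, and no word on whether a library is 1 animal or a pool or whether a line is 1 clone. The design text calls the 3 samples of a group biological replicates, and p-values measure the spread between these samples.

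Estimated depth was 13300000 to 34900000 fragments per library in LLC1 and 13700000 to 32700000 in KP. A gene was tested in a line where at least 1 group's mean lay 1 log2 unit or more above the table's lowest value, which kept 10581 of 31618 LLC1 genes and 11193 of 36040 KP genes. Of the members, 88 were tested in LLC1 and 86 in KP. The leukocyte gene Ptprc, which encodes the CD45 antigen of the sort, lay at 6.68 to 67.0 normalised counts in LLC1 and 12.7 to 219 in KP. Keratin Krt8 lay at 2194 to 4248 normalised counts in LLC1 and 45623 to 95452 in KP, while Epcam, an epithelial adhesion gene, was at 28.3 or less in LLC1. Positions are those of GENCODE vM21 (GRCm38). Values below are normalised counts, calculated back from the deposited log2 values, and the log2 difference is on the deposited variance-stabilised scale, where it is smaller than the log2 of the ratio of counts. A gene was called where limma's Benjamini-Hochberg adjusted p, over all tested genes of a line, was below 0.05. The 2 tables were normalised separately, so levels were compared within a line only.

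The complexes moved by small amounts in most groups, as the plot of complex medians shows. In Chronic IFNG LLC1 the median log2 difference of the structural subunits from the parental mean was -0.070, -0.083 and -0.076 in the 3 libraries for complex I, -0.18, -0.19 and -0.10 for complex III and -0.14, -0.17 and -0.14 for complex V. Every one of these values lay below the 3 parental libraries. In Relapsed LLC1 the medians were -0.038, 0.029 and 0.027 for complex I, 0.24, 0.17 and 0.21 for complex II and 0.10, 0.16 and 0.10 for complex IV, so that complexes II and IV lay above all parental libraries and complex I overlapped them. In 2nd relapse KP complex IV stood highest, at 0.40, 0.29 and 0.34, beside 0.15, 0.10 and 0.14 for complex I. The medians of complex III were 0.21, 0.18 and 0.25 and those of complex V 0.15, 0.050 and 0.19 in the same libraries. In Late relapse KP complex V was the highest of the 5 in 2 of the 3 libraries, at 0.13, 0.24 and 0.19. Medians over all tested genes stayed between -0.030 and 0.034 in every library. Because the members were chosen with earlier results known, these medians are a description and carry no test.

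**Figure D1:**
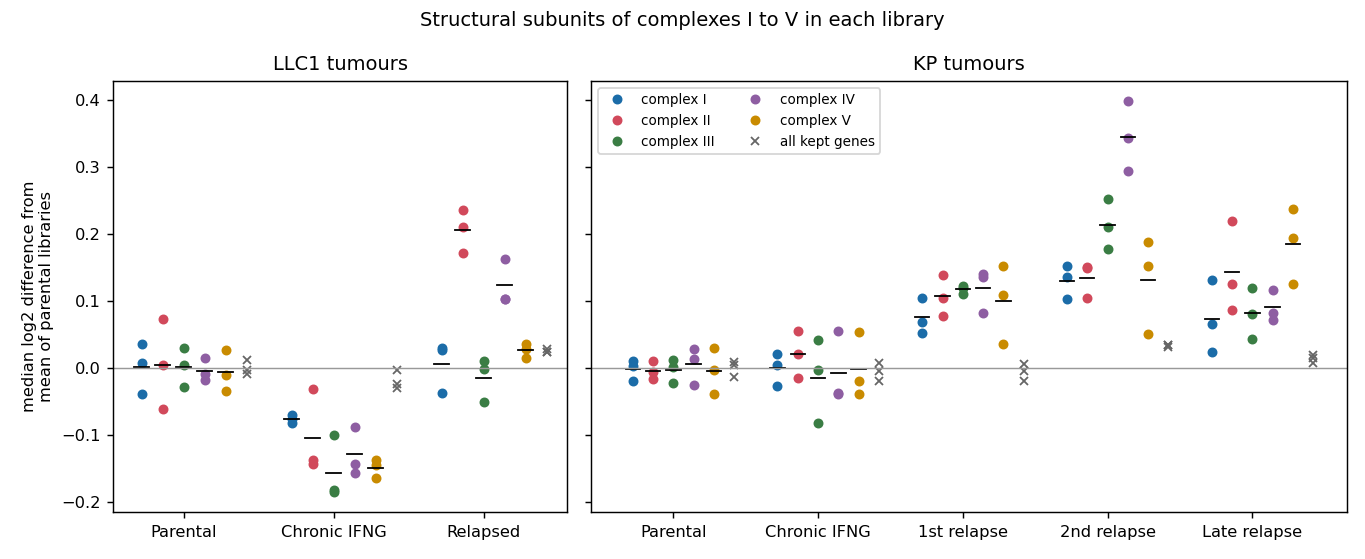
Median log2 difference from the mean of the 3 parental libraries of the same line (y axis) for the tested structural subunits of each complex, with 1 point per library, black bars for group means and grey crosses for the median over all tested genes. All complexes lay below the parental libraries in Chronic IFNG LLC1 except 1 library of complex II, and complex IV reached 0.29 to 0.40 in 2nd relapse KP.

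Chronic IFNG LLC1 tumours had lower levels of members of all 5 complexes and higher levels of none. Of 88 tested members 0 rose and 21 fell, which is 23.9% of them, beside 24.5% of all tested genes called in either direction, 9.03% higher and 15.5% lower. The background depended on expression level. With a stricter filter of 3 log2 units above the lowest value, 362 of 3218 genes were higher and 848 lower. No share matched for expression level was calculated. The median log2 difference of the members was -0.089, beside -0.016 over all tested genes. All 21 were structural subunits, and 0 of 10 tested assembly factors were called, with a median of 0.0026. The shares differed between complexes, with 4 of 36 subunits of complex I, 1 of 4 of complex II, 4 of 9 of complex III, 5 of 11 of complex IV and 7 of 17 of complex V lower.

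Cyc1, the haem-carrying cytochrome c1 of complex III, showed the largest fall, from 1704, 1795 and 1747 normalised counts in the parental libraries to 1183, 1233 and 1324 in Chronic IFNG LLC1. The groups did not overlap, and the mean was 1.40-fold lower (log2 difference -0.37, SE 0.048, adjusted p = 0.000822). Uqcrq, a small subunit of the same complex, went from 608, 662 and 659 to 406, 462 and 529 (log2 difference -0.28, SE 0.060, adjusted p = 0.00882). The electron carrier between complexes III and IV, Cycs, which is outside the rule, fell by 0.34 (adjusted p = 0.00349). Uqcrc1, a core protein of complex III, was not called (log2 difference -0.066, SE 0.062, adjusted p = 0.464).

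In complex IV, Cox8a, a small membrane subunit, went from 2898, 2764 and 2736 to 2288, 2264 and 2254 (log2 difference -0.25, SE 0.045, adjusted p = 0.00340), with no overlap. Cox6b1, which sits on the intermembrane side, went from 1624, 1706 and 1534 to 1249, 1200.5 and 1365 (log2 difference -0.27, SE 0.055, adjusted p = 0.00683). Cox4i1 and Cox5a, early-assembling subunits around the mitochondrially encoded core, were not called, at -0.12 and -0.089. In complex V, Atp5l, the membrane subunit g that sits beside the dimer interface, went from 2115, 2153 and 2064 to 1580.0, 1550.3 and 1668 (log2 difference -0.32, SE 0.047, adjusted p = 0.00162). Atp5a1, the alpha subunit of the catalytic head, went from 12858, 14016 and 13224 to 10902, 10364 and 10176 (log2 difference -0.34, SE 0.055, adjusted p = 0.00244). All 3 exposed libraries were again below all 3 parental ones for both genes, while Atp5b, the catalytic beta subunit, had a difference of 0.016 (adjusted p = 0.884). Of the 3 genes for the membrane-ring subunit c, which encode the same mature protein, Atp5g1 fell by 0.25 and Atp5g3 by 0.29, while Atp5g2 had a difference of -0.0092 (adjusted p = 0.945).

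In complex I, Ndufs1, the large iron-sulphur subunit, went from 2475, 2496 and 2311 to 2139, 1977 and 2158 (log2 difference -0.18, SE 0.053, adjusted p = 0.0326), and its call was lost under 6 of its 15 alternatives, with adjusted p from 0.0176 to 0.113. Ndufa2, an accessory subunit, fell by 0.21, Ndufa9 by 0.16 and Ndufb9 by 0.16. In complex II only the membrane anchor Sdhd was called, from 1791, 1855 and 1807 to 1402, 1469 and 1587 (log2 difference -0.23, SE 0.051, adjusted p = 0.00957). Without Parental LLC1 replicate 2 the number of members called was 11. Fibroblast markers moved with this group: the summed level of the 10 genes on that list was 1.09% to 1.54% of all normalised counts in the parental and 2.02% to 3.18% in the exposed libraries. Most of that sum was Col3a1, at 215668 to 642716 normalised counts over the LLC1 libraries, beside 42382.5 or less for Dcn, the next largest. Of the 10 genes, 8 were called higher, and their part in the result was not tested. In such bulk samples fewer cells of a type and less RNA per cell cannot be told apart.

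Relapsed LLC1 tumours had members moving both ways. Of 88 tested members 25 rose and 12 fell, beside 25.9% and 19.5% of all tested genes, or 45.4% in either direction, so that the shares called in each direction, 28.4% and 13.6%, lay near the background. The members' median was 0.025, beside 0.025 over all tested genes. By complex, 10 subunits rose and 7 fell of 36 in complex I, 2 and 0 of 4 in complex II, 2 and 1 of 9 in complex III, 5 and 1 of 11 in complex IV, and 4 and 1 of 17 in complex V.

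Sdhb, the iron-sulphur subunit of complex II, had the largest rise, from 1005, 1173 and 1174 normalised counts in Parental LLC1 to 1729, 1764 and 1826 in Relapsed LLC1. The groups were far apart, with a 1.59-fold higher mean (log2 difference 0.51, SE 0.053, adjusted p = 3.95e-05). Sdhd rose from 1791, 1855 and 1807 to 2385, 2217 and 2356 (log2 difference 0.29, SE 0.051, adjusted p = 0.00107), while the catalytic flavoprotein Sdha was not called (log2 difference 0.13, SE 0.093, adjusted p = 0.294) and Sdhc, the other membrane anchor, had a difference of 0.0037. In complex IV, Cox5a rose from 764, 778 and 889 to 1285, 1249 and 1171 (log2 difference 0.43, SE 0.053, adjusted p = 0.000109). Cox6c, an accessory subunit, rose from 2182, 2119.7 and 2127 to 3036, 2973 and 3113, with no overlap (log2 difference 0.42, SE 0.045, adjusted p = 4.18e-05). Cox6a1, the ubiquitous form of a regulatory subunit, rose by 0.42 and Cox8a by 0.30. Cox6b1 went the other way, to 1222, 1305 and 1338 (log2 difference -0.25, SE 0.055, adjusted p = 0.00353).

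In complex III, Uqcrc2, a core protein of the matrix arm, fell from 1596, 1702 and 1573 to 993, 1159 and 1109.7, a 1.49-fold lower mean without overlap (log2 difference -0.43, SE 0.058, adjusted p = 0.000192). Its partner Uqcrc1 was higher (log2 difference 0.17, SE 0.062, adjusted p = 0.0395), a call lost under 7 of its 15 alternatives, with adjusted p from 0.0298 to 0.135, and Cyc1 was not called, at 1922, 1847 and 1835 (log2 difference 0.076, SE 0.048, adjusted p = 0.217). In complex V the paired subunits of the catalytic head went opposite ways. Atp5a1 fell to 9739, 10559 and 10288 (log2 difference -0.37, SE 0.055, adjusted p = 0.000346) while Atp5b rose from 18982, 19464 and 20362 to 21479, 24145 and 24981 (log2 difference 0.26, SE 0.067, adjusted p = 0.0103). Atp5f1, subunit b of the peripheral stalk, rose by 0.41 (adjusted p = 0.000247). In complex I, Ndufc2, an accessory subunit of the membrane arm, fell from 452, 469 and 544 to 274, 301 and 284 (log2 difference -0.39, SE 0.054, adjusted p = 0.000228), and Ndufab1, the acyl carrier protein, fell by 0.30. Ndufb8 rose by 0.39, and the core subunits Ndufv1, which binds NADH, and Ndufs8 rose by 0.27 and 0.26. Of the 10 assembly factors tested, Ndufaf4 (0.32) and Sdhaf2 (0.21) were higher, and Ndufaf1 (-0.27) and Ndufaf7 (-0.19) lower. The fibroblast list had 7 of 10 genes lower here, though its summed level, 1.22% to 1.39% of all counts, lay within the parental range. That sum was again mostly Col3a1, and the list's part in the result was not tested.

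Set directly against Chronic IFNG LLC1, Relapsed LLC1 had 43 members higher and 6 lower, with background shares of 31.5% and 20.5%, or 52.0% in either direction. The members' median was 0.14, and those of complexes IV and V were 0.25 and 0.20, with 7 of 11 and 11 of 17 subunits higher and 0 lower in each. Cox8a, at 2288, 2264 and 2254 in the exposed and 3674, 3563 and 3470.2 in the relapsed libraries, rose 1.57-fold by mean counts (log2 difference 0.56, SE 0.045, adjusted p = 5.18e-06). Ndufb8, at 988, 883 and 886 and 1548, 1493 and 1586, rose 1.68-fold (log2 difference 0.55, SE 0.053, adjusted p = 1.56e-05). The fibroblast list was lower in this comparison in 9 of 10 genes.

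**Figure D2:**
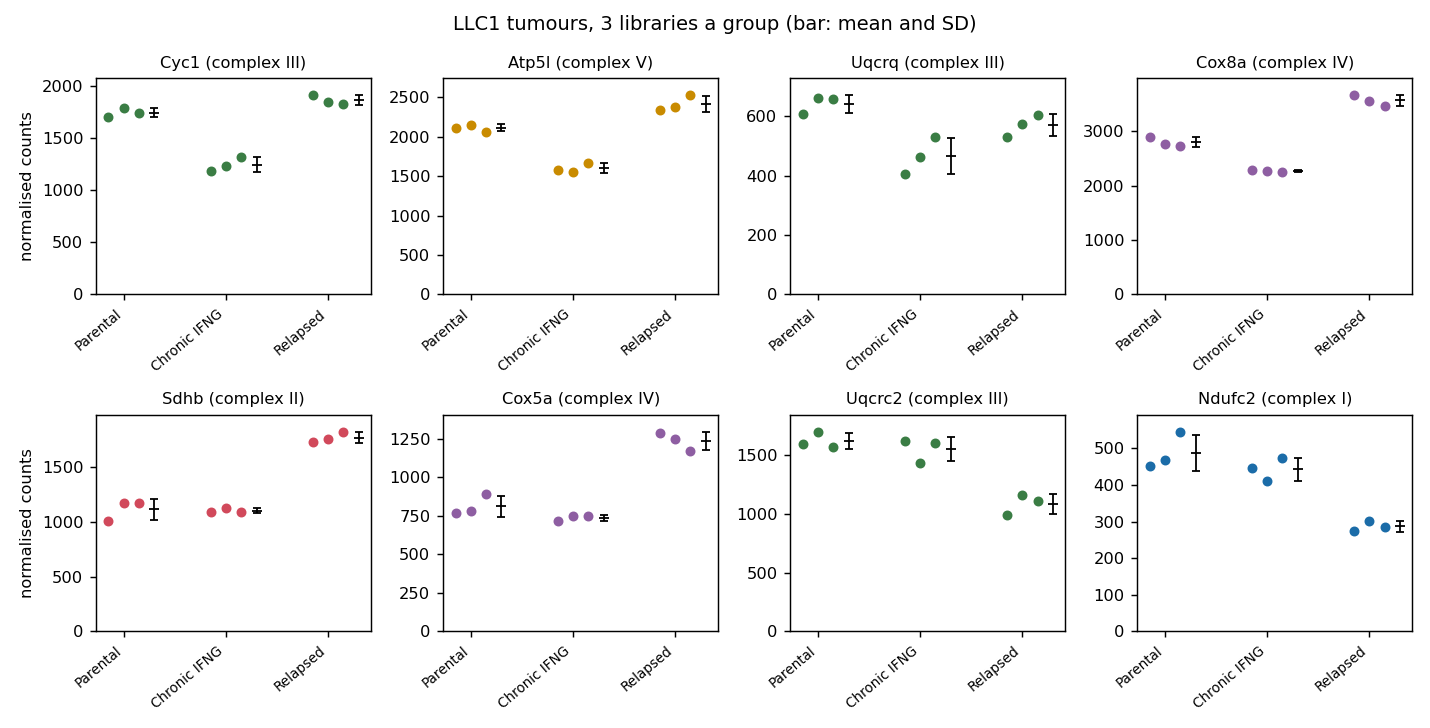
Normalised counts per library (y axis, from 0) of 8 members in the 3 LLC1 groups, with points for libraries and a bar for mean and SD. Cyc1, Atp5l, Uqcrq and Cox8a are lower in Chronic IFNG LLC1, Sdhb and Cox5a higher and Uqcrc2 and Ndufc2 lower in Relapsed LLC1, each without overlap with the parental libraries.

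Chronic IFNG KP tumours differed from Parental KP in few members. Of 86 tested, 3 rose and 2 fell, beside 12.8% of all tested genes higher and 9.0% lower, and the members' median was -0.0045. The split was 2 higher and 5 lower after quantile normalisation, and 3 and 5 after median centring. Sdhd rose from 1333, 1244 and 1169 to 1718, 1374 and 1663 (log2 difference 0.25, SE 0.062, adjusted p = 0.00883), and the lowest exposed library lay just above the highest parental one. The count fell to 1 without Parental KP replicate 2 and to 3 without Chronic IFNG KP replicate 1, and Sdhd lost its call under 1 of its 15 alternatives, with adjusted p from 0.000586 to 0.0521. Cox7a2l, a factor that links complexes III and IV into supercomplexes, rose from 3994, 3763 and 4102 to 4464, 4624 and 5041 (log2 difference 0.22, SE 0.059, adjusted p = 0.0135). Its call was lost under 2 of its 15 alternatives, with adjusted p from 0.00182 to 0.0697. Ndufa3, an accessory subunit, was higher by 0.15, lost under 6 of its 14 alternatives, with adjusted p from 0.0116 to 0.133. Uqcrb, the ubiquinone-binding small subunit of complex III, fell by 0.15, lost under 4 of its 14 alternatives, with adjusted p from 0.00974 to 0.0974. Ndufs1 fell by 0.14, lost under 7 of its 15 alternatives, with adjusted p from 0.0164 to 0.122. Cyc1, the leading fall in the LLC1 line, lay at 1221, 1448 and 1493 beside 1650.2, 1479 and 1405, with overlapping groups (log2 difference -0.093, SE 0.062, adjusted p = 0.319). Epithelial tumour markers were at 0.485% to 0.591% of all counts beside 0.434% to 0.436% in Parental KP, with 3 of 5 tested genes higher, and their part in the result was not tested.

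1st relapse KP tumours had more members higher than lower, in all 5 complexes and by small amounts. Of 86 tested, 31 rose and 3 fell, beside 25.4% and 25.5% of all tested genes (50.9% in either direction), and the split was 24 and 6 after median centring. Over all tested genes, quantile normalisation moved the calls from 2846 higher and 2851 lower to 2510 and 3508. The members' split under it is not reported here. The members' median was 0.083, beside -0.0061 over all tested genes, and the complex medians ran from 0.071 in complex I to 0.12 in complex IV. In complex IV 6 of 11 subunits rose and 0 fell, in complex V 6 of 16 and 0, and in complex I 13 of 36 and 1.

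The 3 that fell were Sdha, Cyc1 and Ndufs4, an accessory subunit of complex I (-0.14). The 4 subunits of complex II parted. Sdha, the flavoprotein that oxidises succinate, went from 4033, 3730.2 and 4132 in Parental KP to 2618, 2967 and 2918 in 1st relapse KP (log2 difference -0.42, SE 0.079, adjusted p = 0.000531). Sdhd went from 1333, 1244 and 1169 to 1780.2, 1767 and 1958 (log2 difference 0.42, SE 0.062, adjusted p = 6.44e-05), so that all 3 relapse libraries were below the parental ones for Sdha and above them for Sdhd. Sdhb was higher by 0.16 (adjusted p = 0.0216), a call lost under 6 of its 14 alternatives, with adjusted p from 0.00730 to 0.0992. Sdhc had a difference of 0.058 that was not called.

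The DNA before these 2 genes is shown because the subunits they encode belong to 1 enzyme and moved in opposite directions. Each line gives the 250 bases before the RefSeq start (GRCm38.p6), read 5′ to 3′ on the gene's own minus strand, at chr13:74350241-74350490 for Sdha and chr9:50603850-50604099 for Sdhd. Capitals mark matches on either strand to CGCANGCG, the centre of the motif of nuclear respiratory factor 1 (NRF1), and to CCGGAAG, an ETS motif of the kind bound by GABPA. A site that matches on both strands is counted once, and matches to different motifs may overlap.
Sdha: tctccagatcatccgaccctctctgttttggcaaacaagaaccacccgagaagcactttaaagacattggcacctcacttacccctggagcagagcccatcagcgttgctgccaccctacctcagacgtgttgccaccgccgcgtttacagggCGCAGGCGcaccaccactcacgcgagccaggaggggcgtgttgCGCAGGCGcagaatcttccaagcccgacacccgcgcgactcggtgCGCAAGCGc
Sdhd: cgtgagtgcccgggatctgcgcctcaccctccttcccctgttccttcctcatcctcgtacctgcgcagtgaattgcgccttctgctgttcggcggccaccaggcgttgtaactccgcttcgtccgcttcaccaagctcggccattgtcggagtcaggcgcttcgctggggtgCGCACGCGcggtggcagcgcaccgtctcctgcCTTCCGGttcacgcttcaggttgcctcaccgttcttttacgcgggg
The Sdha window holds 3 NRF1 matches, which begin 97, 54 and 9 bases before the start, and the Sdhd window holds 1 NRF1 match beginning at 78 and 1 ETS match, on the opposite strand, at 46. In windows from 250 bases before to 50 after the start, the NRF1 letters were in 30 of the 78 members with an entry (38.5%), beside 9.22% of all 27025 genes of the table. The ETS letters were in 21 members (26.9%, beside 9.93% of all genes). The YY1 motif AAGATGGC was in 11 (14.1%, beside 3.19%), and the E-box CACGTG in 6 (7.69%, beside 8.09%). The genes of the table were not limited to expressed or protein-coding ones, so they are a set unlike the members. Members without an entry are in none of the medians that follow. They include Cox6c, Ndufb9 and Cyc1, which had the largest rises in 2nd relapse KP, and Atp5a1, Sdhc, Ndufs1 and Cox4i1. In 2nd relapse KP the median log2 difference was 0.025 for the 29 tested members with an NRF1 match and 0.17 for the 44 without. It was 0.23 for the 19 with an ETS match and 0.094 for the 54 without. In 1st relapse KP the medians with and without were 0.082 and 0.092 for NRF1, and 0.13 and 0.079 for ETS, and in Late relapse KP they were 0.093 and 0.095, and 0.17 and 0.033. In Chronic IFNG LLC1 the medians with and without were -0.089 and -0.073 for NRF1, and -0.081 and -0.082 for ETS. These are matches of letters in a window, given as a description.

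Among the rises, Atp5e, the epsilon subunit of the ATP synthase stalk, went from 869, 907 and 922 to 1333, 1338 and 1502 (log2 difference 0.44, SE 0.073, adjusted p = 0.000186). Atp5o, the subunit that joins the peripheral stalk to the catalytic head, went from 1633, 1602 and 1606 to 2231, 2094 and 2351 (log2 difference 0.36, SE 0.052, adjusted p = 4.80e-05). Neither overlapped, and the catalytic subunits Atp5a1 and Atp5b were not called, at 0.11 and 0.042 (Atp5a1 was called after quantile normalisation, at 0.25). In complex I, Ndufc1 rose from 361, 357 and 354 to 579, 541 and 608 (log2 difference 0.37, SE 0.046, adjusted p = 1.41e-05) and Ndufc2 from 508, 493 and 462 to 757, 781 and 708 (log2 difference 0.36, SE 0.062, adjusted p = 0.000255), both small subunits of the membrane arm. Of the core subunits of complex I, which carry the electron path, Ndufs3 was called, at 0.12. Cyc1 fell to 1325, 1174 and 1279 (log2 difference -0.19, SE 0.062, adjusted p = 0.0187), with all 3 libraries below the lowest parental one, and lost its call under 2 of its 15 alternatives, with adjusted p from 0.00551 to 0.0951. Fibroblast markers were higher here too, at 0.290% to 0.405% of all counts beside 0.0629% to 0.101% in Parental KP, with 8 of 10 called. Epithelial tumour markers were at 0.523% to 0.616% beside 0.434% to 0.436%, with 3 of 5 tested genes higher. The part of either list in the result was not tested.

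2nd relapse KP tumours held the largest changes in the members, led by a trio from 3 different complexes on chromosome 15. Cox6c (complex IV, chr15:35925886-35938246) went from 1895, 1886 and 1659 in Parental KP to 4231, 4023 and 4351, Ndufb9 (complex I, chr15:58933756-58939488) from 1507, 1447 and 1341 to 3339.8, 3080.2 and 3305, and Cyc1 (complex III, chr15:76343523-76346260) from 1650.2, 1479 and 1405 to 3311, 3541 and 3195. All 3 relapse libraries lay far above every other KP library for each gene, and the means were 2.32-fold, 2.26-fold and 2.22-fold those of Parental KP. Cox6c differed by 1.02 on the log2 scale (SE 0.058, adjusted p = 1.62e-09). Ndufb9 differed by 0.95 (SE 0.046, adjusted p = 2.90e-10) and Cyc1 by 0.93 (SE 0.062, adjusted p = 8.09e-09). Among the tested members only these had a ratio of mean counts of 2 or more against Parental KP in any KP group, and none reached it in LLC1.

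Of 86 tested members 48 rose and 9 fell, beside 36.8% and 29.0% of all tested genes and 65.8% in either direction. The split was 38 and 16 after quantile normalisation and 40 and 16 after median centring. The median was 0.17, beside 0.030 over all tested genes. By complex, 19 rose and 4 fell of 36 in complex I, 2 and 0 of 4 in complex II, 7 and 1 of 9 in complex III, 8 and 2 of 11 in complex IV, and 7 and 1 of 16 in complex V. The complex medians were 0.13, 0.13, 0.23, 0.35 and 0.14 in that order.

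In complex IV, 8 of 11 subunits rose and 2 fell. Cox8a went from 2209.6, 2272 and 2039 to 3859, 3497 and 3718 (log2 difference 0.64, SE 0.052, adjusted p = 5.46e-08), and Cox6a1 from 1671, 1661 and 1567 to 2538, 2469.7 and 2633 (log2 difference 0.51, SE 0.045, adjusted p = 1.29e-07). Cox5a went the other way, from 1192, 1202 and 1049 to 798, 774 and 816 (log2 difference -0.35, SE 0.047, adjusted p = 1.21e-05), and Cox7b, another small subunit, fell from 2203, 2304 and 2038 to 1673, 1819.7 and 1854. None of these groups overlapped, and Cox4i1, which assembles with Cox5a, rose by 0.27 (adjusted p = 0.000218), or 0.11 without a call after quantile normalisation. In complex III, Uqcrc1 fell from 2813, 2780.0 and 2672 to 2176, 2288 and 2247 (log2 difference -0.25, SE 0.042, adjusted p = 0.000116), while Uqcrq rose by 0.33 and the Rieske iron-sulphur protein Uqcrfs1 by 0.23. In complex V, Atp5a1 rose from 11746, 12228 and 11464 to 17408, 16172 and 17327 (log2 difference 0.50, SE 0.056, adjusted p = 1.94e-06). Atp5b overlapped between the groups (log2 difference -0.057, SE 0.070, adjusted p = 0.491), and was called lower, at -0.33, after quantile normalisation.

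In complex I, core subunits that rose included Ndufs8 by 0.56, Ndufv1 by 0.34 and Ndufs1 by 0.33. Ndufs8, a core iron-sulphur subunit, went from 764, 849 and 753 to 1395, 1324 and 1420.1, without overlap (adjusted p = 3.17e-08). Ndufb11 and Ndufa1, both small membrane-arm subunits encoded on the X chromosome, fell by 0.29 and 0.28. In complex II Sdhc rose from 1172, 1282 and 1435 to 1982, 1773 and 1799 (log2 difference 0.39, SE 0.073, adjusted p = 0.000274). Sdhb was higher by 0.14, a call lost under 7 of its 14 alternatives, with adjusted p from 0.00785 to 0.188, and Sdha was not called (-0.11) except after quantile normalisation, at -0.19. Of the 9 assembly factors tested, Sdhaf2 (0.38), Sdhaf4 (0.24), Ndufaf8 (0.23) and Ndufaf3 (0.18) rose and Ndufaf4 fell (-0.21). The fibroblast list was at 0.00615% to 0.00964% of all counts, with 9 of 10 genes lower, and the epithelial list at 0.780% to 0.847% beside 0.434% to 0.436%, with all 5 tested genes of its 7 higher. Their part in the result was not tested.

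**Figure D3:**
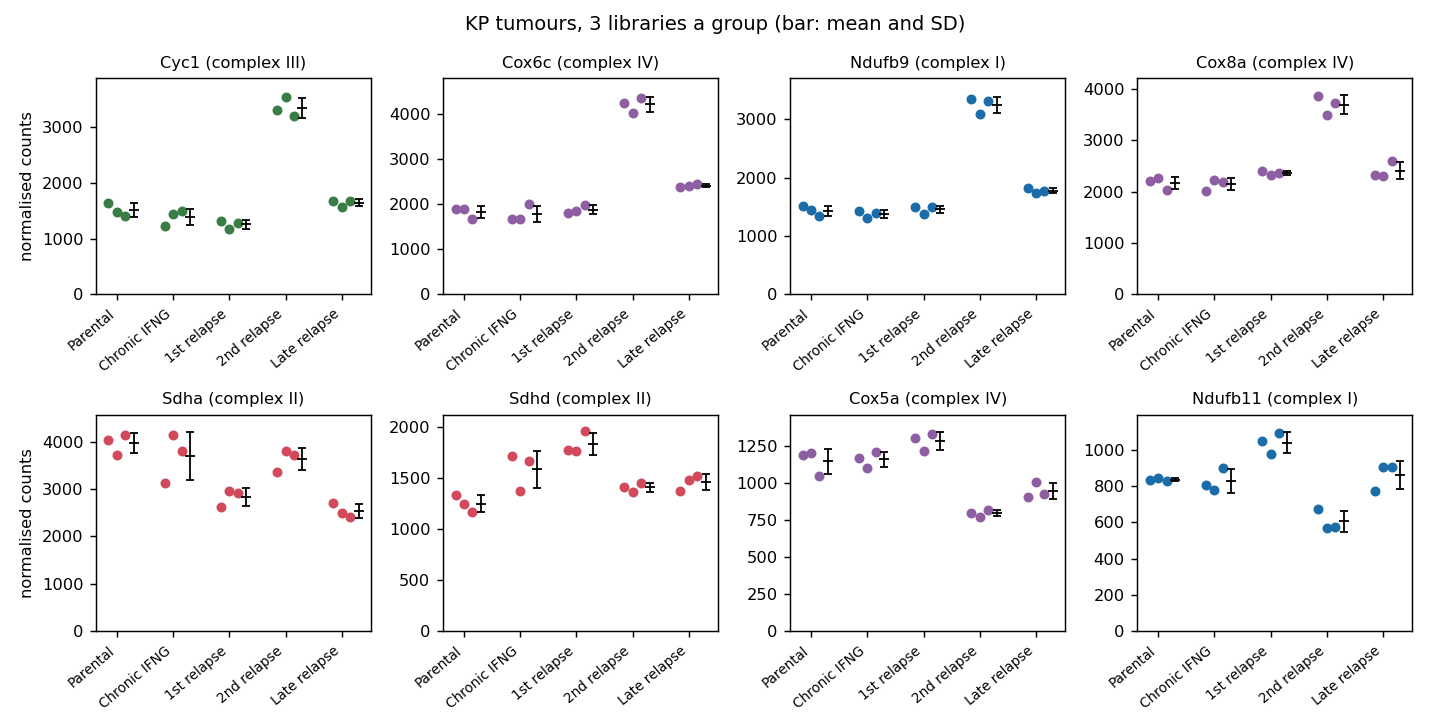
Normalised counts per library (y axis, from 0) of 8 members in the 5 KP groups, with points for libraries and a bar for mean and SD. Cyc1, Cox6c, Ndufb9 and Cox8a stand apart in 2nd relapse KP, Sdha is lower in 1st and Late relapse KP, Sdhd is highest in 1st relapse KP, and Cox5a and Ndufb11 are above the parental level in 1st relapse KP and below it in 2nd relapse KP.

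Late relapse KP tumours had 36 members higher and 12 lower of 86, beside 31.0% and 25.9% of all tested genes and 56.9% in either direction. The split was 26 and 19 after quantile normalisation and 29 and 16 after median centring, and the median was 0.097, beside 0.014 over all tested genes. Complex V had the highest share of rises, 10 of 16 with 1 fall, and complex I had 13 rises and 6 falls. Sdha had the largest change of any member, a fall from 4033, 3730.2 and 4132 to 2711, 2503 and 2421 normalised counts, 1.56-fold lower (log2 difference -0.55, SE 0.079, adjusted p = 4.31e-05). No late library reached the lowest parental one. The other subunits of complex II did not follow: Sdhb rose from 939, 1089 and 963 to 1354, 1374 and 1270.4 (log2 difference 0.30, SE 0.052, adjusted p = 0.000227), Sdhd rose by 0.17, and Sdhc had a difference of 0.12 that was not called.

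Cox6a1 rose from 1671, 1661 and 1567 to 2330.4, 2494 and 2429.5 (log2 difference 0.45, SE 0.045, adjusted p = 1.37e-06), and Cox6b1 from 1738, 1695 and 1676 to 2208, 2399.6 and 2448 (log2 difference 0.37, SE 0.051, adjusted p = 2.76e-05). Ndufa2, of complex I, rose by 0.39, Uqcrq of complex III by 0.36 and Atp5a1 of complex V by 0.38, each without overlap. Cox6c, Ndufb9 and Cyc1, the leading trio of 2nd relapse KP, differed here by 0.33 and 0.24 for the first pair, both called, and by 0.094 for Cyc1 (adjusted p = 0.216). Falls included Uqcrb (-0.26), Atp5g3 (-0.21), Cox7b (-0.20), Cox5a (-0.19) and the core complex I subunit Ndufv2 (-0.19). Ndufs1 also fell, by 0.11, and lost its call under 10 of its 15 alternatives, with adjusted p from 0.0193 to 0.178. Ndufa4, whose protein belongs with complex IV, was higher by 0.15, lost under 8 of its 15 alternatives, with adjusted p from 0.0177 to 0.177. Cox4i1 was higher by 0.14, lost under 3 of its 15 alternatives, with adjusted p from 0.00973 to 0.0954. Fibroblast markers took 0.0553% to 0.251% of all counts, with 1 of 10 called higher, and epithelial markers 0.527% to 0.559%, with 5 of 5 tested called higher.

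**Figure D4:**
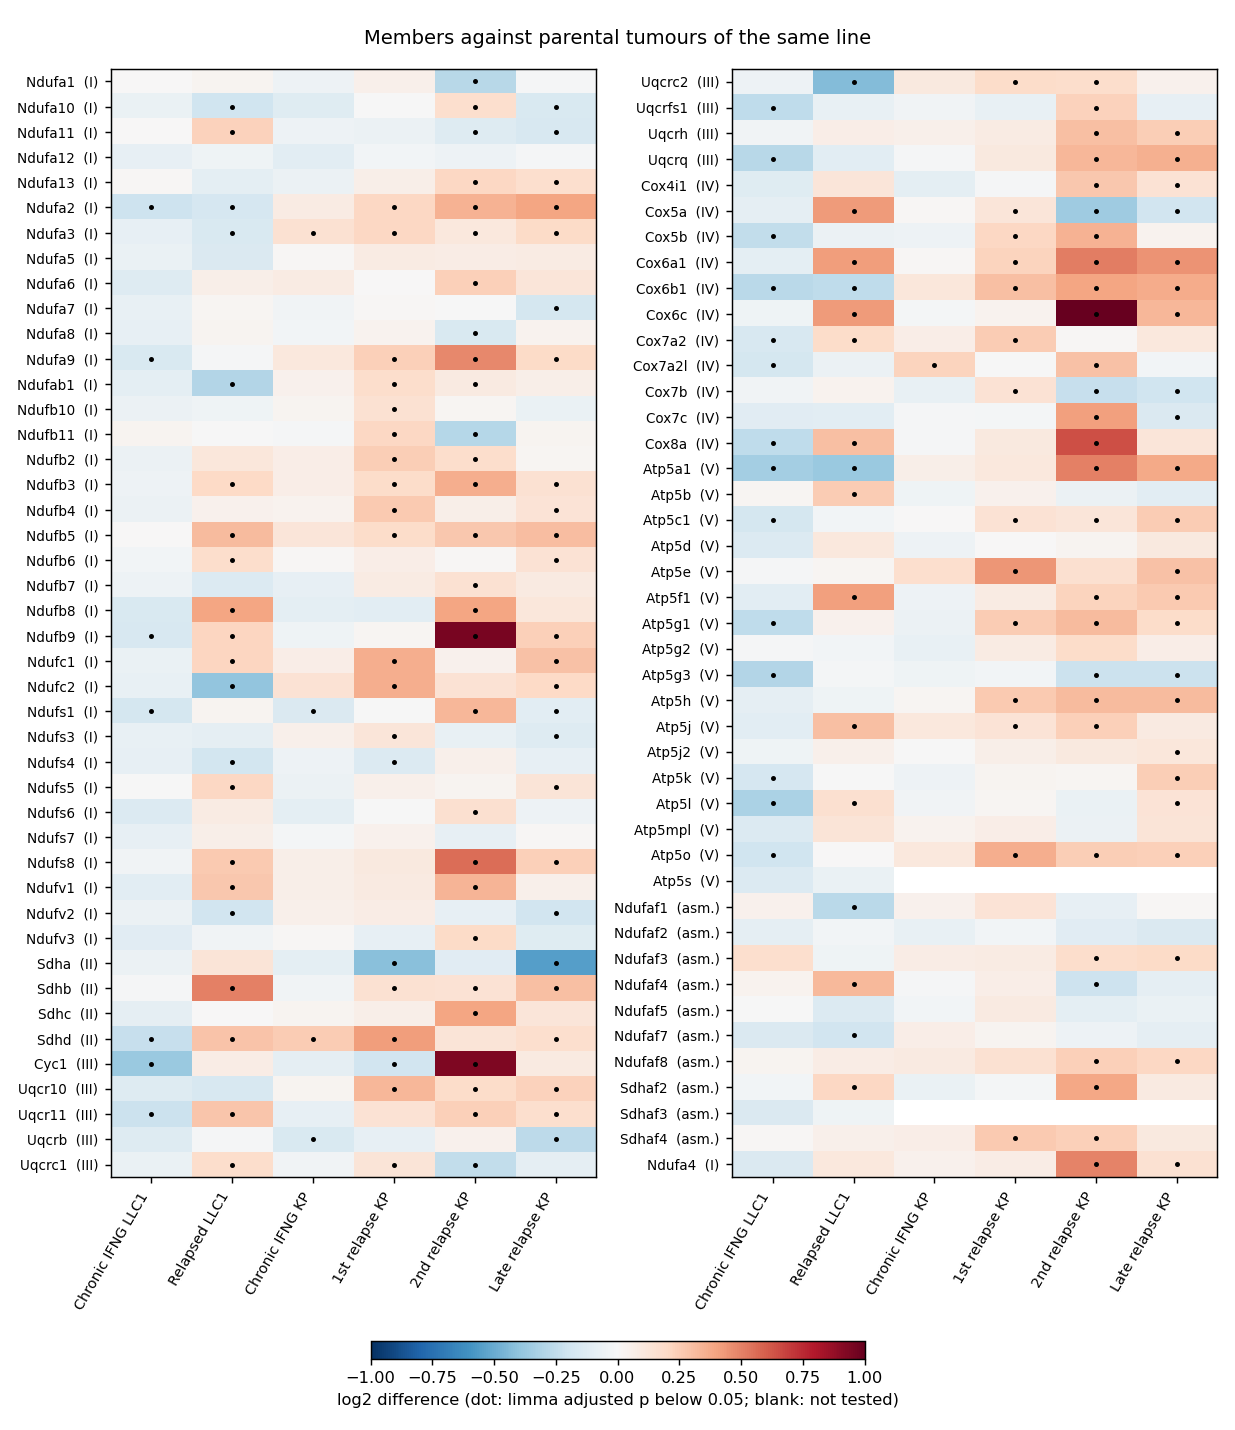
Log2 difference of the tested members, 1 left out, from the parental tumours of its line (colour, from -1 in blue to 1 in red), with members in rows ordered by complex, assembly factors (asm.) after them, and the 6 comparisons in columns; a dot marks an adjusted p below 0.05 and blank cells were not tested. Chronic IFNG LLC1 shows blue cells with dots and no red ones, and the darkest reds are Cox6c, Ndufb9 and Cyc1 in 2nd relapse KP.

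The relapse stages of KP also differed from each other. Between 2nd and 1st relapse KP, 33 members were higher and 20 lower in the 2nd (34.3% and 28.0% of all tested genes, 62.2% in either direction). The split was 23 and 24 after quantile normalisation. With the stricter filter, 1693 of 3347 genes were higher and 759 lower. Cyc1 had the largest difference (log2 difference 1.13, SE 0.062, adjusted p = 1.93e-09), at 1325, 1174 and 1279 in the 1st and 3311, 3541 and 3195 in the 2nd, and Cox6c and Ndufb9 followed at 0.98 and 0.93. Ndufb11 was lower by 0.50 and Cox5a by 0.47, at 1307, 1216 and 1335 in the 1st and 798, 774 and 816 in the 2nd. Between Late and 2nd relapse KP, 12 were higher and 30 lower in the late tumours (25.2% and 29.7%, 54.9% in either direction; 16 and 25 after quantile normalisation), led by Cyc1 (-0.84), Ndufb9 (-0.71), Cox6c (-0.69) and Cox7c (-0.55). Between Late and 1st relapse KP, 14 were higher and 21 lower (24.6% and 23.5%, 48.1% in either direction), with Cyc1 higher by 0.29 and Cox7b lower by 0.35. Cox7c, a small subunit of complex IV, lay at 1817, 2003 and 1871 in Parental KP, 2686, 2551 and 2816 in 2nd relapse KP and 1524, 1836 and 1661 in Late relapse KP, so that the 2nd relapse libraries stood above both other groups. Cell type markers also differed between the stages. Of the 10 fibroblast genes, 10 were lower in 2nd than in 1st relapse KP, 8 higher in Late than in 2nd and 8 lower in Late than in 1st. Of the 5 tested epithelial genes, 4 were higher and 1 lower in 2nd than in 1st, 1 higher and 4 lower in Late than in 2nd, and 1 higher and 2 lower in Late than in 1st. Their part in the result was not tested.

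Members were also set beside the other genes of their chromosome. This sorting was chosen after the values had been seen. In 2nd relapse KP the median log2 difference of the other tested genes ranged from -0.32 on the X chromosome (326 genes) to 0.29 on chromosome 15 (464 genes). Chromosome 15 carries 5 members, and 4 of them rose, with Atp5g2 not called. All 5 members on chromosome 19 rose (Cox8a, Ndufs8, Ndufb8, Ndufv1 and Sdhaf2) beside a median of 0.27 for its other 401 genes, and all 7 on chromosome 1 rose beside 0.19 for 664 genes. All 3 tested members on the X chromosome fell: Ndufb11, Ndufa1 and Cox7b. Over the 19 chromosomes with a tested member, the members' median and the other genes' median had a Pearson correlation of 0.89, and across all 10 comparisons it ran from 0.82 to 0.90. There were exceptions in sign. On chromosome 13 in 2nd relapse KP 3 members rose and 0 fell, with a median of 0.053 beside -0.083 for the other genes. In 1st relapse KP the members' median and the other genes' median had opposite signs on 12 of the 19 chromosomes, and 61.8% of called members had the sign of their chromosome's median, beside 62.2% of other called genes. These shares were 84.2% and 69.4% in 2nd relapse KP. The points share libraries and parental controls, and the chromosomes hold 1 to 7 members each, so these are descriptions without a test.

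Around the trio, close neighbours had larger differences than the chromosome as a whole. Neighbours were the other tested genes whose midpoint lay within 2 Mb of the member's midpoint. Of 66 such genes around Cyc1, 58 were higher and 2 lower in 2nd relapse KP, with a median of 0.54. Around Ndufb9 all 22 neighbours were higher (median 0.66), and around Cox6c 15 of 18 were higher and 1 lower (median 0.73). Around Cox5a (chr9:57521274-57532426), which fell, 30 of 40 were lower and 3 higher (median -0.33). In 1st relapse KP the neighbours of Ndufb9 had a median of 0.98, with 14 of 22 higher and 5 lower, while Ndufb9 itself was at 0.019 and was not called. Around Sdha (chr13:74322254-74350280) in Late relapse KP 14 of 22 neighbours were lower and 0 higher (median -0.28), beside -0.55 for Sdha. The median of the other chromosome 13 genes was -0.24 there.

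In Relapsed LLC1 the chromosomes with the largest medians were 3 and 18. The other genes of chromosome 3 had a median of 0.28 and its 3 members, Atp5f1, Ndufb5 and Ndufc1, all rose. Those of chromosome 18 had a median of -0.26 and both of its members fell, Atp5a1 and Ndufa2. All 5 tested members on chromosome 7 fell (Uqcrc2, Ndufc2, Ndufab1, Cox6b1 and Ndufa3), to a median of -0.30, beside -0.087 for its other 738 genes. Sdhb stood apart from its surroundings: its 25 neighbours within 2 Mb had a median of 0.071, beside 0.51 for Sdhb, and so did Uqcrc2, with -0.050 for 23 neighbours beside -0.43.

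Taking each chromosome's median off its members reduced the variance of the members' differences by 53.6% in 2nd relapse KP, 53.0% in Late relapse KP and 44.3% in Relapsed LLC1, and by 12.2% in Chronic IFNG LLC1. The median of complex IV in 2nd relapse KP went from 0.35 to 0.37, while that of the 7 core subunits of complex I went from 0.32 to 0.064. In Chronic IFNG LLC1 the median of complex IV went from -0.12 to -0.15 and that of complex V from -0.14 to -0.10. Of the called members in 2nd relapse KP 84.2% had the sign of their chromosome's median, beside 69.4% of the other called genes. In 1st relapse KP the shares were 61.8% and 62.2%. The copy number of these tumours was not analysed here.

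**Figure D5:**
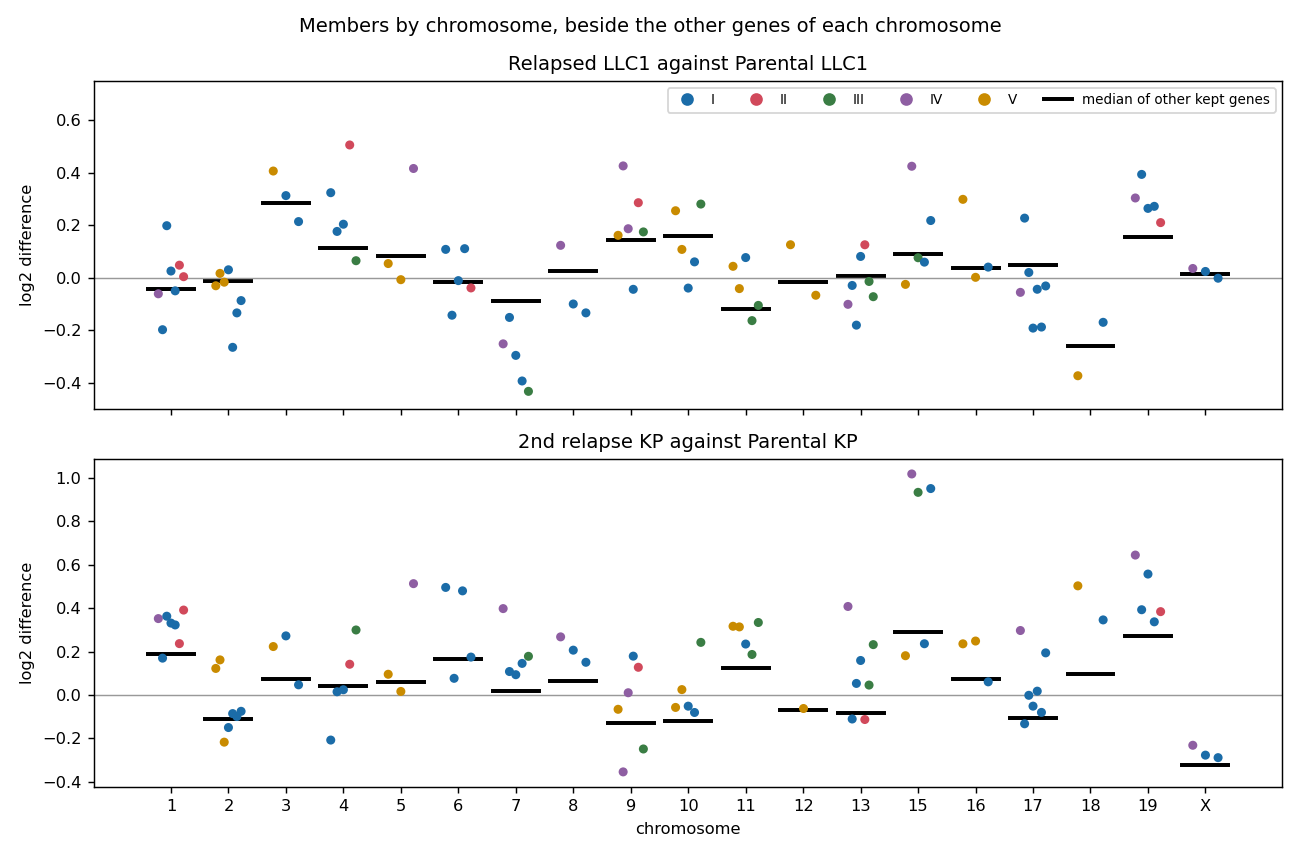
Log2 difference from parental tumours (y axis) of each tested member, placed by chromosome (x axis) and coloured by complex, with black bars for the median of the other tested genes of that chromosome, in Relapsed LLC1 (top) and 2nd relapse KP (bottom). In 2nd relapse KP the members on chromosomes 1 and 19 all lie above 0 and those on X below 0, and 3 members on chromosome 15 lie at 0.93 to 1.02.

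Of the subunits encoded by mitochondrial DNA, more were called lower than higher in every group compared with parental tumours. In 1st relapse KP 9 of 13 such genes fell and 1 rose (median -0.50). mt-Co3, of complex IV, differed by -0.87, mt-Nd2, of complex I, by -0.77, and mt-Nd3, also of complex I, by 0.82, all called. In 2nd relapse KP 5 fell and 1 rose, and in Late relapse KP 7 fell and 0 rose. In Chronic IFNG LLC1 7 of 12 tested fell and 1 rose (median -0.34), with mt-Nd2 at -0.59 and mt-Atp8, of complex V, at -0.58. In Relapsed LLC1 4 of 12 fell and in Chronic IFNG KP 4 of 13, and 0 rose in each. The summed normalised counts of these genes did not fall in every group. They were 380248 to 400233 in 2nd relapse KP, beside 366397 to 387317 in Parental KP. In Relapsed LLC1 they were 294186 to 308298, beside 297613 to 335871 in Parental LLC1. In the other groups the sums lay below the parental range. Calls of these genes after other scalings are not given here. Of all tested genes, 25.5% were lower and 25.4% higher in 1st relapse KP, 29.0% and 36.8% in 2nd, and 25.9% and 31.0% in Late relapse KP. These shares were 15.5% and 9.03% in Chronic IFNG LLC1, 19.5% and 25.9% in Relapsed LLC1, and 9.0% and 12.8% in Chronic IFNG KP.

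Other mitochondrial genes were read from lists of the same pathway, and the shares of all tested genes just given are the background for these counts too. Of the mitochondrial ribosomal proteins, which translate those transcripts, 50 of 77 rose and 4 fell in 2nd relapse KP (median 0.19), 33 and 11 in Late relapse KP, and 22 and 5 in 1st relapse KP. After quantile normalisation these counts were 43 and 5, 22 and 17, and 13 and 11. In Chronic IFNG LLC1 1 of 78 rose and 18 fell (median -0.10). Of 43 further assembly factors for the complexes, 17 of 37 tested rose and 3 fell in 2nd relapse KP, led by Atpaf1 (0.47), an assembly factor of the ATP synthase head, and 1 rose and 4 fell of 40 in Chronic IFNG LLC1. Of 17 genes of the TCA cycle, 0 rose and 6 fell in Chronic IFNG LLC1, among them Dld (-0.42), the dihydrolipoamide dehydrogenase, and Mdh2 (-0.27), the malate dehydrogenase. In 2nd relapse KP 5 rose and 2 fell (5 and 5 after quantile normalisation), with Idh2, the NADP-linked isocitrate dehydrogenase, at -0.45. Coenzyme Q synthesis genes rose in 6 of 10 and fell in 0 there, led by Coq9 (0.58). Of 6 carriers and porins, Vdac2, an outer-membrane channel, rose by 0.78 and Slc25a5, an ADP/ATP carrier, fell (-0.47).

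Regulators of mitochondrial genes were measured in the same fits. Esrra, a nuclear receptor for energy metabolism genes, rose in 2nd relapse KP by 0.46 (adjusted p = 5.99e-06), and in Late relapse KP by 0.37. It was also called in 1st relapse KP, at 0.18, but not after median centring or quantile normalisation. Gabpa, the DNA-binding ETS subunit of GABP, rose by 0.37 in 2nd relapse KP and fell in Chronic IFNG LLC1, by 0.16 (adjusted p = 0.0284). Myc, a growth regulator on chromosome 15, rose by 0.43 in 2nd relapse KP and was lower in Late relapse KP (-0.21). Nrf1 had a difference of -0.034 in 2nd relapse KP, not called, and was lower in 1st (-0.18) and Late relapse KP (-0.17). Pprc1, a coactivator, was lower in 1st (-0.25) and Late relapse KP (-0.43). Tfam, which packages and transcribes mitochondrial DNA, passed the threshold in none of the 6 comparisons with parental tumours, with differences from -0.11 to 0.17. Ppargc1a and Ppargc1b did not pass the filter in either line.

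Isoforms of restricted tissue use stayed low. Cox6b2, a testis form, was at 4.49 normalised counts or less in all 24 libraries, and Cox7a1, a muscle form, lay between 1.27 and 11.4 in LLC1 and between 19.4 and 63.6 in KP. Cox4i2 was in the KP table and Cox6a2 in the LLC1 table only, so neither is a member. Ndufa4l2, an alternative form of Ndufa4 known as a gene of low-oxygen conditions, did not pass the filter, yet its levels differed between groups. It lay at 6.02, 3.32 and 4.69 in Parental KP, 101, 37.7 and 45.9 in 1st relapse KP, 77.4, 77.2 and 83.9 in 2nd relapse KP and 9.0, 8.42 and 63.7 in Late relapse KP. The 1st and 2nd relapse libraries lay above all parental ones, and 1 late library stood apart from the other two. With all genes of the table tested, it was higher in 2nd (log2 difference 0.57, SE 0.093, adjusted p = 0.000108) and 1st relapse KP (0.46, adjusted p = 0.00143), and was not called in Late relapse KP (adjusted p = 0.147). In the LLC1 line it lay at 17.7, 26.0 and 12.3 in Parental LLC1, 18.9, 22.4 and 35.5 in Chronic IFNG LLC1 and 3.09, 10.2 and 3.91 in Relapsed LLC1, with the relapsed libraries below all others. It was lower in Relapsed than in Chronic IFNG LLC1 (-0.24, adjusted p = 0.0121) and not called against Parental LLC1 (adjusted p = 0.0580). Ndufa4 itself rose in 2nd relapse KP, from 1179, 1204 and 1167 to 1747, 1768 and 2112 (log2 difference 0.49, SE 0.058, adjusted p = 3.31e-06). Several members have near-identical copies elsewhere in the genome, such as Ndufb4c, Ndufa11b, Uqcrh-ps1 and Atp5c1-ps, and how reads were shared between copies is not stated, so values of Ndufb4, Ndufa11, Uqcrh and Atp5c1 are uncertain.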

How the data were processed

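RNA-seq of sorted live CD45-negative tumour cells was deposited as 1 table of log2 values for LLC1 (9 libraries) and 1 for KP (15 libraries). The authors' deposited values are variance-stabilised log2 values, as read from the tables' titles and from the shared lowest value that stands for a count of 0. Cutadapt 2.9, Salmon 1.8.0, DESeq2 1.34.0 and GRCm38/mm10 are named, without roles, per the submitters' processing notes; the annotation, filters and strand setting are not given in the sources used here. Symbols and positions come from GENCODE vM21.

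Normalised counts were calculated back by inverting the variance-stabilising curve at the table's lowest value. Depth was estimated from the spacing of low values, of which 72.8% to 79.3% per library lay within 0.15 of whole reads. Each line was fitted with limma 3.58.1 in R 4.3.3 (group means, intensity trend, all groups of the line), with Benjamini-Hochberg adjustment over tested genes and a threshold of 0.05. The filter kept genes with a group mean 1 log2 unit above the lowest value, which is 130 normalised counts in LLC1 and 144 in KP, and kept 10581 of 31618 genes (33.5%) in LLC1 and 11193 of 36040 (31.1%) in KP. Tables were made with pandas 2.3.3 in Python 3.11.15 and plots with matplotlib 3.10.9. The fit was tested on simulated data with 200 changed genes. It recovered 38.8% to 52.2% of log2 changes of 0.25, 85.1% to 97.0% of changes of 0.5 and 98.5% to 100.0% of changes of 1 over the 10 comparisons. Of its calls, 0.621% to 9.36% were of unchanged genes. The simulation changed far fewer genes than the 21.8% to 65.8% called in the real comparisons. The adjusted threshold is stricter when few genes change, so these recoveries do not carry over to the real fits.

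Groups were compared with the parental tumours of their line, the 2 other LLC1 groups with each other, and the KP relapse stages with each other. Comparisons that share a parental group are not independent. Members and gene lists were chosen with earlier results of these data known. Named members are the 5 largest called rises and falls without overlap in each comparison, 10 anchors (Ndufs1, Ndufv1, Sdha, Sdhb, Uqcrc1, Cyc1, Cox4i1, Cox5a, Atp5a1 and Atp5b), restricted isoforms and their ubiquitous partners, and the leading genes of the pathway lists. Other members were named after their values had been seen, and the values of 1 member are not reported here. Alternatives were the filter, quantile normalisation, median centring, the intensity trend, the samples in the fit, weights per library, a block for the replicate number, log2 of counts plus a pseudocount of 10, a minimum difference of 0.25, leaving out each library, and other summaries of a complex. Markers of other cell types were summed per library as a share of all normalised counts: skeletal muscle 0.000208% to 0.000902%, fat 0.0000966% to 0.00186%, leukocytes 0.000917% to 0.00393%, endothelium 0.00132% to 0.0258%, smooth muscle and pericytes 0.00102% to 0.00367%, red cells 0.00000977% to 0.00387%, fibroblasts 0.00615% to 3.18% and epithelial tumour cells 0.0196% to 0.847%.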

Additional observations from a re-analysis of the deposited data

Results flagged for a closer look

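Some members were called in opposite directions in relapse stages of KP. The difference between the stages was also fitted with limma. Picking members on opposite sides of the same parental libraries largely fixes that outcome in advance, so its adjusted p adds no support. Between 2nd and 1st relapse KP these were Cyc1, with a log2 difference of 1.13 (adjusted p = 1.93e-09; 0.93 and -0.19 against Parental KP), Ndufb11 at -0.50 (-0.29 and 0.21), Cox5a at -0.47 (-0.35 and 0.12), Cox7b at -0.38 (-0.23 and 0.15) and Uqcrc1 at -0.38 (-0.25 and 0.13). Between Late and 1st relapse KP they were Cox7b at -0.35 (-0.20 and 0.15), Cox5a at -0.31 (-0.19 and 0.12) and Ndufs3 at -0.26 (-0.13 and 0.12). Between Late and 2nd relapse KP they were Cox7c at -0.55 (-0.14 and 0.41), Ndufs1 at -0.44 (-0.11 and 0.33) and Ndufa10 at -0.32 (-0.15 and 0.17). Adjusted p for these 11 differences ran from 1.93e-09 to 0.000353. The share of all tested genes called in opposite directions in this way was not calculated, so whether 11 is unusual is not known. In each pair of values against Parental KP the first is the stage named first. Losses of a call under the alternatives were not summarised for Ndufs3, Ndufa10 and Cox7c against Parental KP, nor for Ndufb11 in 1st relapse KP. The rise of Cox5a in 1st relapse KP lost its call under 10 of its 14 alternatives, with adjusted p from 0.0328 to 0.230, that of Cox7b under 5 of its 15 alternatives, with adjusted p from 0.00247 to 0.102, that of Uqcrc1 under 4 of its 15 alternatives, with adjusted p from 0.00198 to 0.0814, the fall of Cyc1 there under 2 of its 15 alternatives, with adjusted p from 0.00551 to 0.0951, and the fall of Ndufs1 in Late relapse KP under 10 of its 15 alternatives, with adjusted p from 0.0193 to 0.178.

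After chronic IFNG exposure, 7 members lay above the parental mean in every exposed KP library and below it in every exposed LLC1 library, and were called in 1 or both lines. Their mean log2 differences were as follows: Sdhd (0.25 in KP and -0.23 in LLC1), Cox7a2l (0.22 in KP and -0.18 in LLC1), Ndufa3 (0.15 in KP and -0.082 in LLC1), Cox6b1 (0.11 in KP and -0.27 in LLC1), Atp5o (0.11 in KP and -0.20 in LLC1), Ndufa9 (0.10 in KP and -0.16 in LLC1) and Ndufa2 (0.083 in KP and -0.21 in LLC1). The call of Cox7a2l was lost under 11 of its 15 alternatives, with adjusted p from 0.0302 to 0.140 in LLC1, and under 2 of its 15 alternatives, with adjusted p from 0.00182 to 0.0697 in KP. In KP the call of Ndufa3 was lost under 6 of its 14 alternatives, with adjusted p from 0.0116 to 0.133, and that of Sdhd under 1 of its 15 alternatives, with adjusted p from 0.000586 to 0.0521. Only Sdhd and Cox7a2l were called in both lines, Ndufa3 was called in KP alone and the others in LLC1 alone. The lines' tables were normalised separately, and the difference between lines was not tested. The share of all tested genes that meet the same rule was not calculated, so whether 7 members is unusual is not known.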

How the results depend on the processing

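The alternatives were summarised for 185 pairs of a named member and a comparison. Other members named above, such as Ndufa9, Sdhc and Ndufa10, are not among these pairs, nor is the minimum difference of 0.25. No called member in the 185 pairs changed direction: of 2716 recomputed values 2588 kept their side of the threshold, 110 lost the call and 18 gained it. The counts of called members are given in the order Chronic IFNG LLC1, Relapsed LLC1, Relapsed against Chronic IFNG LLC1, Chronic IFNG KP, 1st, 2nd and Late relapse KP, 2nd against 1st, Late against 1st and Late against 2nd relapse KP; in the fits reported above they were 21, 37, 49, 5, 34, 57, 48, 53, 35 and 42. With a minimum log2 difference of 0.25 they were 9, 21, 27, 1, 13, 30, 15, 28, 9 and 23. A stricter filter tested fewer members and left 16, 19, 3, 14, 30, 25, 26, 15 and 21 in the comparisons after the first. It also changed the background. Of the 3347 KP genes that passed it, 676 were higher and 1325 lower in 1st relapse KP. The counts were 1515 and 1000 in 2nd and 1138 and 1059 in Late relapse KP. Chronic IFNG KP also gave 2 with no filter, 2 with its groups fitted alone, 8 after median centring and 8 with array weights, and the cause was not tested. Leaving out 1 library gave 11 to 22, 31 to 37, 42 to 47, 1 to 7, 26 to 34, 50 to 57, 33 to 46, 51 to 52, 29 to 33 and 34 to 41. Same-numbered libraries showed no clear joint deviation (mean correlation -0.073 over 9 pairs in LLC1 and 0.025 over 30 in KP). Differently numbered libraries had means of 0.036 and -0.013. These few pairs share libraries, so they cannot show whether the numbers pair them. With the replicate number as a block the counts were 17, 37, 45, 5, 33, 56, 47, 53, 32 and 43. Complex medians shifted with their definition. Median centring gave, in Chronic IFNG LLC1, -0.058 for complex I and -0.12 for V; in Relapsed LLC1 -0.014 for V; in Chronic IFNG KP -0.015 for I; in 1st relapse KP 0.034, 0.070, 0.064 and 0.081 for I to IV; in 2nd relapse KP 0.082, 0.089 and 0.19 for I to III; and in Late relapse KP 0.072 for IV. The mean in place of the median gave 0.053 for V in Relapsed LLC1, 0.037 for II in Chronic IFNG KP, 0.053 and 0.070 for II and III in 1st relapse KP, and 0.0090 for II in Late relapse KP. Counting assembly factors in gave 0.13 for II in Relapsed LLC1, and 0.10 and 0.19 for I and II in 2nd relapse KP. Alternatives chosen after seeing the data used positions. Relative to the chromosome's median, values were -0.063 (I) and -0.10 (V) in Chronic IFNG LLC1, 0.13 (II), 0.043 (IV) and -0.0033 (V) in Relapsed LLC1, 0.11 (I) and 0.077 (III) in 1st relapse, 0.079 (I) in 2nd relapse and 0.14 (IV) in Late relapse KP. Without members on chromosomes shifted by 0.15 or more they were 0.079 (IV) and 0.0013 (V) in Relapsed LLC1, 0.050 (I) and 0.30 (IV) in 2nd relapse, and 0.12 (I) and 0.13 (IV) in Late relapse KP. The deposited tables hold no counts, so precision at low levels rests on the estimated depth. With 3 libraries a group, changes of 0.25 may be missed, at a rate not measured for these fits.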
